A study of Mus musculus with 2 samples.

Results

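The translation initiation factors described here are the 45 genes, of 10666 in the expression table, whose symbol starts with Eif followed by a digit from 1 to 6. They were read in single-cell RNA-seq data of mouse cortical neurospheres, free-floating clusters of neural progenitors, which came from C57BL/6 wild-type embryos (dorsal telencephalon, embryonic day 14.5) and were grown in medium with EGF and bFGF. There are 2 replicate cultures, with 5748 cells in culture 1 and 7057 in culture 2. All cells are of 1 condition and no cell carries a treatment or an altered allele, so the comparisons run along the cell cycle within each culture. The annotation holds 56 symbols of this pattern that are not pseudogenes, and the 11 outside the table were not analysed here.

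Translation initiation brings a ribosome to the start codon of an mRNA. eIF2 carries the initiator tRNA, eIF2B reloads eIF2 with GTP, and eIF3 holds the small subunit together with eIF1, eIF1A and eIF5 while the start codon is sought. eIF4E binds the cap, eIF4G is the scaffold, and the helicase eIF4A with its partners eIF4B and eIF4H unwinds the leader. eIF5B and eIF6 act on the large subunit. The pathway is braked at the cap by eIF4E-binding proteins and at the initiator tRNA by kinases that phosphorylate eIF2.

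Of the genes of neural progenitors in the table, *Nes*, *Vim*, *Fabp7* and *Slc1a3* had a UMI in 89.8% to 100% of the cells of either culture. *Pax6*, which marks dorsal progenitors, had one in 21.1% and 23.1%, and *Hes1*, a Notch target of progenitors, in 44.5% and 50.5%. *Olig2*, a factor of the oligodendrocyte lineage, had a UMI in 97.3% and 91.9% of cells. Of the same lineage, *Pdgfra* had one in 8.77% and 1.81%, and *Cspg4* in 11.8% and 13.7%. In culture 1 *Pdgfra* was found in 5.15% of G1/G0 cells and 12.3% of G2/M cells, and the astroglial *S100b* in 21.9% and 14.6%. In culture 2 these shares were 1.48% and 1.95%, and 7.06% and 5.81%. At least 1 of 4 markers of more differentiated cells (*Dcx*, *Rbfox3*, *Pdgfra*, *S100b*) was found in 31.3% to 34.2% of cells in each arc of culture 1 and in 11.8% to 16.3% in culture 2, with the highest share in the S arc of both. Without these cells, *Eif2d* and *Eif4a2* were no longer lower in G2/M and *Eif3m* no longer differed between the 3 arcs as a whole (adjusted p = 0.0636, limma), while the other 24 of the 26 differences from G1/G0 given below were still called. The cultures share 48 cell barcodes. The median depth was 19477 UMIs per cell in culture 1 and 14637 in culture 2.

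To relate the factors to DNA outside the coding sequence, the promoters of RefSeq (build GRCm38.p6, 250 bases before to 50 after each annotated start) were searched, and 38 of the 45 factors had one. The E-box CACGTG, the palindrome bound by MYC, MAX and other factors of their class, was found in 7 of the 38 (18.4%), against 992 of the 8318 genes of the table with a promoter (11.9%) and 8.33% of 48 cytosolic ribosomal protein genes. The 7 are *Eif3a*, *Eif3f*, *Eif3k*, *Eif4a1*, *Eif4e*, *Eif4g1* and *Eif4h*, and *Eif4e* and *Eif4g1* hold a pair each. Of all 45 factors, 7 were higher in S and in G2/M than in G1/G0, as were 1420 of the 9693 genes tested below. Among the factors with an E-box, *Eif3a*, *Eif4e* and *Eif4h* were higher in both and *Eif3f* was lower in both. *Eif3k*, *Eif4a1* and *Eif4g1* were called in neither arc. A link between the motif and the arcs was not tested. The windows of 30 bases are shown for the 3 higher genes and the 1 lower gene, 5′ to 3′ on the strand of the gene, with the E-box in capitals.
Eif3a, chr19:60790654-60790683, minus strand: ccgcgagggaatCACGTGgttccttccttt
Eif4e, chr3:138527028-138527057, plus strand: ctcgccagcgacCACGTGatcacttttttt
Eif4e, chr3:138527192-138527221, plus strand: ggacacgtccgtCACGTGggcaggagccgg
Eif4h, chr5:134639488-134639517, minus strand: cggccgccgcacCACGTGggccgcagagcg
Eif3f, chr7:108934335-108934364, plus strand: caagatatgattCACGTGgtataaatttag
The motif begins at base 22 from the RefSeq start of *Eif3a*, at -228 and -64 for *Eif4e*, at -96 for *Eif4h* and at -68 for *Eif3f*. The gene coordinates given below are those of GENCODE and can start elsewhere. By GENCODE, *Eif3a* starts at 60790658 on the minus strand, so its motif lies before that start. *Eif4e* starts there at 138526179, so its motifs lie inside the gene. A match of these letters is a description of the window and not a measured binding site.

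A run of pyrimidines that opens with C at the start of transcription is the hallmark of mRNAs of the translation machinery. Runs of at least 5 bases were counted from a C within 5 bases of an annotated start, whatever base came before it. Such a run was found in 11 of the 38 factors (28.9%), in 24.1% of all genes with a promoter and in 45.8% of the ribosomal protein genes. A counted run can thus be the later part of a longer pyrimidine tract that does not open with C. This search was added after the data had been seen. The longest runs so counted among the factors were those of *Eif3f*, 15 bases, and of *Eif2s3x*, 12 bases. In *Eif2s3x*, further T bases come directly before the counted run. Both are shown here with the counted run in capitals.
Eif3f, chr7:108934405-108934434, plus strand: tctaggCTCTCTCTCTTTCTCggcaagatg
Eif2s3x, chrX:94212632-94212661, minus strand: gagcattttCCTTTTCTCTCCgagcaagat
The composite site of ATF4, the transcription factor of the stress response that eIF2 phosphorylation sets off, was searched as TGATGNAA on both strands. It was found in 1 factor, *Eif2s3x* (2.63% of the 38, against 2.48% of all genes with a promoter).

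The deposited values were normalised by the authors to the depth of each cell, so a level is relative to the depth of a cell and not an amount per cell. The value that stands for 1 molecule also differs from gene to gene, as given at the end, so the levels of different genes are on scales that differ somewhat, and so are their sums. As 3′ tags count molecules, levels are not divided by transcript length. The median member had a mean value of 2.40 in culture 1 and 2.15 in culture 2, where the median gene of the table had 0.233 and 0.213. Of the 45 factors, 29 had a mean above 1 in both cultures and 7 a mean under 0.5 in both. *Eif1*, which guards the choice of start codon, had the highest mean at 25.9 and 26.4, followed by the helicase *Eif4a1* at 24.5 and 20.1. *Eif2s2*, the beta subunit of eIF2, was at 9.60 and 8.98. At the other end was *Eif2ak3*, the PERK kinase of the endoplasmic reticulum, at 0.0861 and 0.0803.

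Together the factors made up a like share of all values in the 3 arcs. In culture 1 they held 1.44% of the summed values in G1/G0, 1.47% in S and 1.47% in G2/M. In culture 2 they held 1.38%, 1.38% and 1.37%. The arcs are cut from the deposited cell-cycle position: G1/G0 from 1.5π to 0.25π, S from 0.25π to 0.75π and G2/M from 0.75π to 1.5π, with 2523, 1084 and 2141 cells in culture 1 and 4180, 932 and 1945 in culture 2. The largest distance between these arcs within a culture was smaller than the distance between the cultures in each of the 3. When the cycle is cut into 8 equal arcs, numbered from position 0, the share was highest in arcs 6 and 7, at 1.53% and 1.56% in culture 1 and at 1.45% in both in culture 2, where the other arcs had 1.44% to 1.49% and 1.35% to 1.39%. Of the cells in the G1/G0 and S arcs, 93.2% to 97.1% were of the same Seurat stage, and of those in the G2/M arc 71.0% and 80.8%.

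Single cells showed little periodicity of these genes. A curve of 2 harmonics of the position was fitted to log2(value + 1) in each culture, and its R² is the share of the variance between cells that it explains. The R² reached 0.05 in both cultures for 0 factors and for 428 of 10666 genes (4.01%). The median of the lower R² was 0.00293 over the factors and 0.00183 over all genes. No p-value belongs to these shares, since cells are not replicates. *Eif4h* had the largest lower value of the factors, 0.0291 in culture 1 and 0.0220 in culture 2. *Eif4e*, the cap-binding protein, and *Eif3a*, the largest eIF3 subunit, followed with 0.0292 and 0.0179, and with 0.0278 and 0.0177. *Eif4a3*, a helicase of the exon junction complex that is named for its likeness to eIF4A, came next with 0.0603 in culture 1 and 0.0158 in culture 2. For scale, periodic loess lines of *Top2a*, the topoisomerase that peaks in G2, had R² values of 0.644 and 0.624, and those of the replication clamp *Pcna* were 0.584 and 0.423. By the paper, the position derives from principal components of cell-cycle genes in the neurosphere cells, with *Top2a* the highest ranked. The R² of *Top2a* is thus partly built in. Which of the 428 genes also enter the position was not tested.

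**Figure D1:**
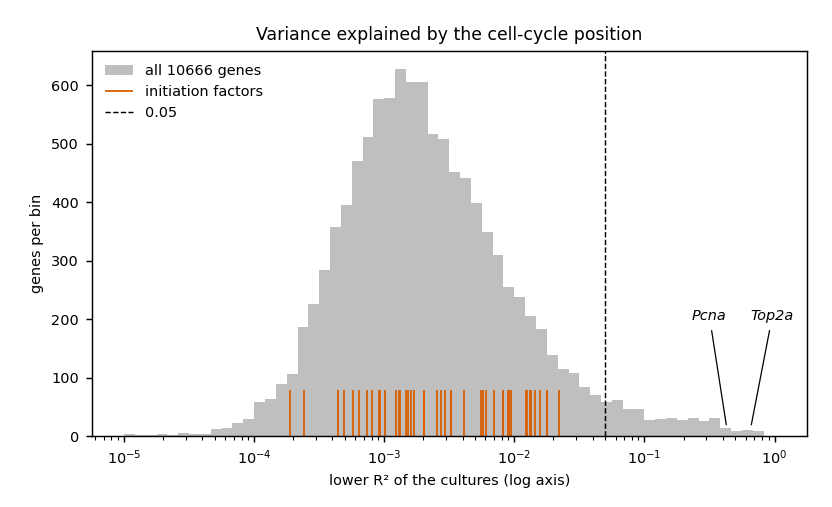
Histogram of the lower R² of the cultures for all 10666 genes on a log axis, with the 45 initiation factors as orange ticks and a dashed line at 0.05. All 45 factors lie left of the line, while Pcna and Top2a lie far right of it.

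Averaged over the cells of an arc, several factors nevertheless differed along the cycle. The mean value of each gene in each arc and culture was compared with limma, with the culture as a term in the fit and p-values adjusted by Benjamini-Hochberg over 9693 genes with a mean value of at least 0.02. All 45 factors passed that filter. Of them 14 differed between the 3 arcs (31.1%), where 4782 of all genes tested did (49.3%). The S arc was higher than G1/G0 for 10 factors, against 19.5% of all genes, and lower for 2, against 13.4%. The G2/M arc was higher for 9, against 20.6% of all genes, and lower for 5, against 24.9%. Both shares of higher calls are near those of all genes, and the factors changed by little: the median absolute log2 difference was 0.10 in S and 0.11 in G2/M, against 0.17 and 0.22 for all genes. These medians are not matched for level. The median factor had a mean value of 2.40 and 2.15 in the cultures, against 0.233 and 0.213 for the median gene. What part the level has in the smaller differences was not tested. In all, 18 of the 45 factors were called in S or G2/M, against 5195 of the 9693 genes tested, and not all of the 18 are among the 14. *Eif2b1*, *Eif2d*, *Eif4a2* and *Eif4g2* missed the threshold over the 3 arcs (adjusted p = 0.0710, 0.0587, 0.05003 and 0.0909, limma). Every called factor moved the same way in both cultures, but a call from 2 cultures favours such genes, so this is no separate support. Over all 45 factors 35 had the same sign in both cultures in S (77.8%, against 77.6% of all genes) and 32 in G2/M (71.1%, against 82.1%).

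The fit needs the pairing of arcs within a culture: without the culture term no factor differed between the arcs, as against 1581 of all genes (16.3%). No factor was then called in S, against 9.27% of all genes higher and 1.80% lower. In G2/M 2 were called (*Eif4ebp2* and *Eif4enif1*, both higher), against 11.7% of all genes higher and 7.56% lower. At an unadjusted p under 0.05 that limma fit gave 6 factors between the arcs, 5 higher and 1 lower in S. Median depth rose from G1/G0 through S to G2/M, at 18238, 19872 and 21946 UMIs in culture 1 and at 14052, 15338 and 16626 in culture 2. Among cells of 12000 to 20000 UMIs, 7 factors were higher in S (against 14.2% of all genes there) and 7 in G2/M (against 16.8%), all of them among those called in all cells, and none was lower in either arc by limma (2 in S and 3 in G2/M at an unadjusted p under 0.05). The 7 lower calls are thus lost in cells of like depth, where fewer cells entered the fit and 16.5% of all genes were lower in G2/M, and they are given as values with that limit. There, adjusted p-values were from 0.067 to 0.264 in S and from 0.068 to 0.522 in G2/M. With means of log2(value + 1) in place of means of the values, *Eif3m* was no longer lower in S and none of the 5 was lower in G2/M (3 factors at an unadjusted p under 0.05, limma). With median-of-ratios scaling, *Eif2b1* and *Eif4e* in S and *Eif2d* and *Eif3f* in G2/M missed the threshold, as did *Eif2b1* in S with the Seurat stages in place of the arcs.

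**Figure D2:**
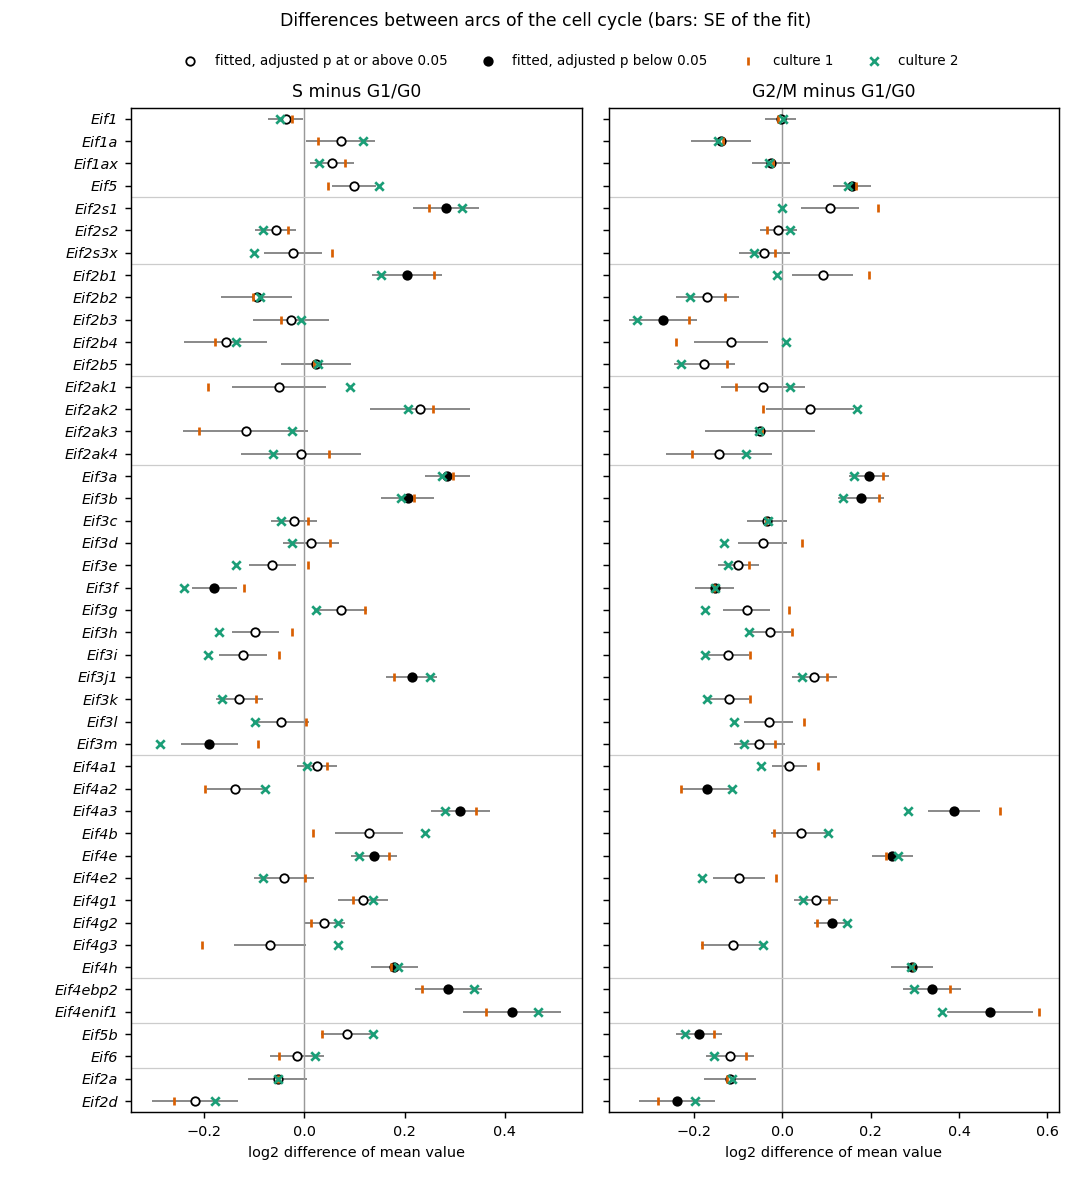
Log2 difference in mean value between the S arc (left) or the G2/M arc (right) and the G1/G0 arc for the 45 factors, grouped by role. Circles are fitted values with their SE, filled where the adjusted p is below 0.05, and the coloured marks are the cultures; the filled circles of Eif4a3, Eif4h, Eif4ebp2 and Eif4enif1 lie right of 0 in both panels.

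Among the cap-binding and helicase factors, 4 of 10 were higher in G2/M than in G1/G0 (40%, against 20.6% of all genes). In S 3 of the same factors were higher (30% of the 10, against 19.5%). Lower in G2/M was 1 (10%, against 24.9%). *Eif4a3* (chr11:119288363-119300089, GRCm38) had mean values of 1.997, 2.54 and 2.82 in G1/G0, S and G2/M of culture 1 and of 1.80, 2.19 and 2.20 in culture 2. Its G1/G0 value was the lowest of the 3 arcs in both cultures, and the fitted rise was 0.31 ± 0.06 in S (log2, SE; adjusted p = 0.00177, limma) and 0.39 ± 0.06 in G2/M (adjusted p = 0.000234, limma), or 30.9%. *Eif4h*, the RNA-binding partner of the helicase, had 2.85, 3.21 and 3.50 in culture 1 and 2.58, 2.94 and 3.16 in culture 2. It climbed from arc to arc in both, by 0.18 ± 0.05 in S (adjusted p = 0.0122, limma) and 0.29 ± 0.05 in G2/M (adjusted p = 0.000351, limma). *Eif4e* had 3.80, 4.27 and 4.47 in culture 1 and 3.28, 3.54 and 3.93 in culture 2. Its rise was 0.14 ± 0.05 in S (adjusted p = 0.0385, limma), 0.17 with an adjusted p of 0.078 among cells of like depth, and 0.25 ± 0.05 in G2/M (adjusted p = 0.00110, limma). *Eif4g2*, a relative of eIF4G without the eIF4E-binding part, had 7.72, 7.79 and 8.15 in culture 1 and 7.40, 7.75 and 8.19 in culture 2. It rose by 0.11 ± 0.04 in G2/M only just past the threshold (adjusted p = 0.0430, limma), and by 0.13 with an adjusted p of 0.092 in cells of like depth; without arc 6 of 8 it missed the threshold.

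The close relatives of these genes did not follow them in the test. *Eif4a1*, the main eIF4A helicase, had 23.8, 24.6 and 25.2 in culture 1 and 20.2, 20.3 and 19.6 in culture 2, and the cultures differ in direction in G2/M. *Eif4a2*, the other helicase of this kind, had 1.94, 1.69 and 1.65 in culture 1 and 1.56, 1.47 and 1.44 in culture 2. The fitted drop in G2/M was -0.17 ± 0.06 (adjusted p = 0.0276, limma), and -0.07 with an adjusted p of 0.522 in cells of like depth. *Eif4e2*, which binds caps but not eIF4G, had 1.48, 1.48 and 1.46 in culture 1 and 1.64, 1.55 and 1.44 in culture 2, with an adjusted p of 0.194 in G2/M by limma. The scaffold *Eif4g1* had 2.42, 2.59 and 2.60 in culture 1 and 2.32, 2.55 and 2.40 in culture 2, with adjusted p-values of 0.1001 and 0.244 by limma. *Eif4b*, the other helper of the helicase, differed by 0.13 ± 0.07 in S and 0.04 ± 0.07 in G2/M. Whether the relatives differ from each other in response was not tested.

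Of the proteins that bind eIF4E and keep it from eIF4G, 2 are among the 45 factors, and *Eif4ebp1* and *Eif4ebp3* are not. Both of the 2 were higher in S and in G2/M than in G1/G0, as were 19.5% and 20.6% of all genes. *Eif4ebp2*, the 4E-BP known from the brain, had 0.814, 0.960 and 1.06 in culture 1 and 0.769, 0.976 and 0.948 in culture 2. It rose by 0.29 ± 0.07 in S (adjusted p = 0.00610, limma) and 0.34 ± 0.07 in G2/M (adjusted p = 0.00145, limma). *Eif4enif1*, the transporter that takes eIF4E into the nucleus and to P-bodies, had 0.205, 0.266 and 0.311 in culture 1 and 0.225, 0.315 and 0.292 in culture 2. The fitted rise of 0.42 ± 0.10 in S (adjusted p = 0.00686, limma) and 0.47 ± 0.10 in G2/M (adjusted p = 0.00215, limma), or 38.6%, was the largest of the 45 factors in both arcs. That rank depends on the measure. With a pseudocount of 0.1 the rises were 0.31 in S and 0.35 in G2/M, against 0.30 and 0.37 for *Eif4a3*. With means of log2(value + 1) they were 0.07 and 0.09, against 0.24 and 0.30 for *Eif4a3*. Over 8 arcs, the highest mean of *Eif4enif1* lay in arc 4 of both cultures, at 0.32 and 0.34, and in cells of like depth in arc 3 of both, at 0.37 and 0.35. Its lowest mean lay in arc 6 of both, at 0.17 and 0.20, but in arc 1 and arc 7 of the cultures in cells of like depth.

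The eIF3 subunits did not all go 1 way. Of 13, 3 were higher in S (23.1%, against 19.5% of all genes) and 2 lower (15.4%, against 13.4%). In G2/M 2 were higher (15.4%, against 20.6%) and 1 lower (7.69%, against 24.9%). These shares are near or under those of all genes. *Eif3a* (chr19:60761117-60790658) had 3.84, 4.71 and 4.50 in culture 1 and 3.57, 4.32 and 3.99 in culture 2, so that S was the highest arc in both. It rose by 0.29 ± 0.05 in S (adjusted p = 0.000513, limma), or 21.9%, and by 0.20 ± 0.05 in G2/M (adjusted p = 0.00434, limma). *Eif3b*, the subunit that bears a propeller facing the ribosome, had 1.78, 2.07 and 2.07 in culture 1 and 1.58, 1.80 and 1.74 in culture 2, and rose in both arcs, by 0.21 ± 0.05 and 0.18 ± 0.05 (adjusted p = 0.0112 and 0.0170, limma). *Eif3j1*, the loosely bound subunit, had 2.63, 2.98 and 2.82 in culture 1 and 2.79, 3.32 and 2.87 in culture 2. It rose in S by 0.21 ± 0.05 (adjusted p = 0.00727, limma; 0.19 with an adjusted p of 0.094 in cells of like depth).

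*Eif3f* (chr7:108934417-108942951), the subunit with the longest counted pyrimidine run at its start, went the other way. It had 9.16, 8.43 and 8.23 in culture 1 and 9.08, 7.69 and 8.16 in culture 2, with G1/G0 the highest arc in both. The drop was -0.18 ± 0.04 in S (adjusted p = 0.00891, limma) and -0.15 ± 0.04 in G2/M (adjusted p = 0.0144, limma), and in cells of like depth -0.18 and -0.14 with adjusted p-values of 0.067 and 0.112. *Eif3m*, its neighbour in the complex, had 2.44, 2.29 and 2.41 in culture 1 and 2.46, 2.01 and 2.31 in culture 2, and was lower in S by -0.19 ± 0.06 (adjusted p = 0.0237, limma), a value of -0.15 with an adjusted p of 0.264 in cells of like depth. *Eif3i* and *Eif3k* had fitted differences of -0.12 to -0.13 in both arcs that missed the threshold, with adjusted p-values from 0.0531 to 0.0738 by limma. *Eif3c*, *Eif3d*, *Eif3e*, *Eif3g*, *Eif3h* and *Eif3l* were called in neither arc, with fitted values between -0.10 and 0.07.

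**Figure D3:**
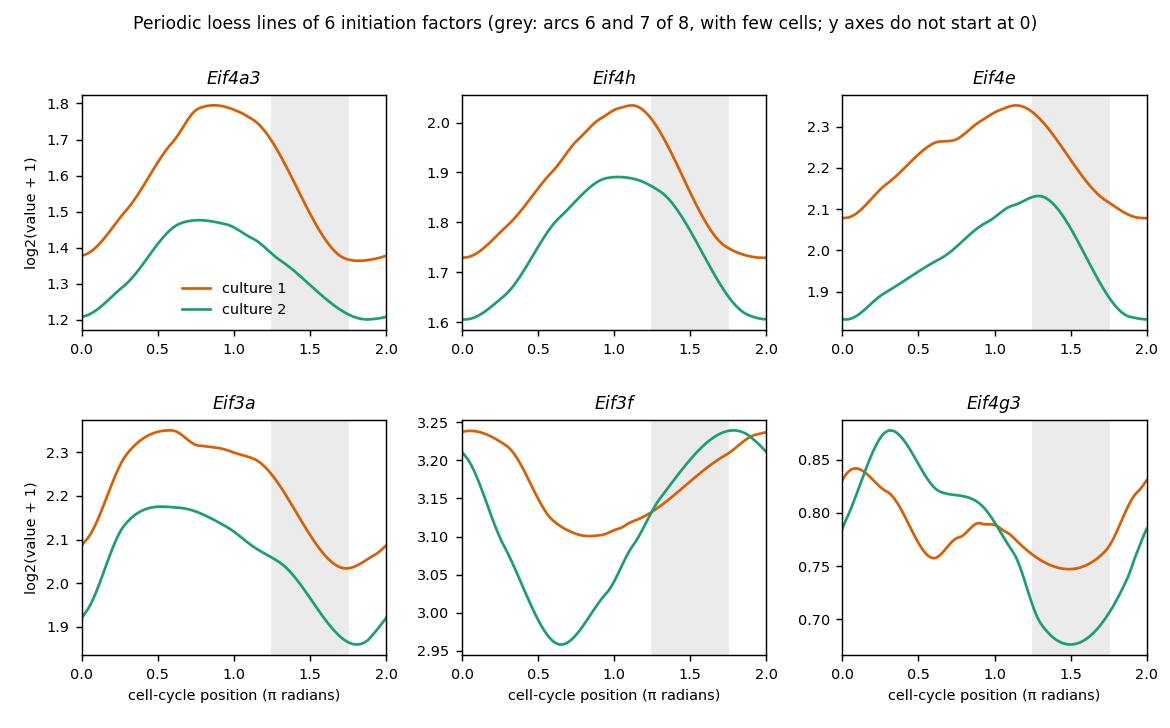
Periodic loess lines of log2(value + 1) against the cell-cycle position for 6 factors in both cultures, with the sparse arcs 6 and 7 of 8 shaded and y axes that do not start at 0. The maxima of Eif4h lie at 1.115π and 1.025π and those of Eif3a at 0.575π and 0.525π, while Eif3f has its minimum at 0.83π and 0.65π.

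Of the eIF2 subunits, 1 of 3 was called, where 5195 of the 9693 genes tested were called in S or G2/M. *Eif2s1*, the alpha subunit that the kinases phosphorylate, had 2.34, 2.78 and 2.72 in culture 1 and 2.09, 2.60 and 2.08 in culture 2. S was the highest arc in both and the rise was 0.28 ± 0.07 (adjusted p = 0.00628, limma), whereas in G2/M culture 1 was 0.22 above G1/G0 and culture 2 was level with it (adjusted p = 0.201, limma). *Eif2s2* and the X-linked *Eif2s3x* had fitted values between -0.06 and -0.01, with *Eif2s3x* at 1.59, 1.65 and 1.57 in culture 1 and at 1.76, 1.64 and 1.68 in culture 2. Of the 5 subunits of eIF2B, *Eif2b1* was higher in S, with 0.768 and 0.921 in G1/G0 and S of culture 1 and 0.685 and 0.763 of culture 2 (0.21 ± 0.07, adjusted p = 0.0409, limma; 0.30 with an adjusted p of 0.061 in cells of like depth). *Eif2b3*, of the catalytic part, was lower in G2/M, with 0.565 and 0.487 in G1/G0 and G2/M of culture 1 and 0.411 and 0.325 of culture 2 (-0.27 ± 0.08, adjusted p = 0.0132, limma; -0.29 with an adjusted p of 0.068 in cells of like depth). *Eif2b2* and *Eif2b5* had values of -0.17 and -0.18 in G2/M that missed the threshold.

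None of the 4 kinases of eIF2 was called by limma (1 higher in S and none in G2/M at an unadjusted p under 0.05). *Eif2ak1*, the heme-regulated kinase, had 0.286, 0.249 and 0.265 in culture 1 and 0.263, 0.281 and 0.266 in culture 2, where the order of the arcs is not shared. *Eif2ak2*, the kinase of double-stranded RNA, had 0.226, 0.272 and 0.219 in culture 1 and 0.175, 0.203 and 0.198 in culture 2. S was highest in both cultures, with a difference of 0.23 ± 0.10 that did not pass (adjusted p = 0.0964, limma). *Eif2ak3* stayed between 0.0762 and 0.0898 in all arcs of both cultures, and *Eif2ak4*, the kinase of uncharged tRNA, between 0.0890 and 0.111. The SE of these fits, from 0.09 to 0.12 on the log2 scale, is larger than for the abundant factors, and a difference of over 2 SE, that of *Eif2ak2*, did not pass.

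Among the factors of start codon choice, *Eif5*, which makes eIF2 release the tRNA, had 7.70, 7.95 and 8.64 in culture 1 and 7.40, 8.21 and 8.21 in culture 2. It rose in G2/M by 0.16 ± 0.04 (adjusted p = 0.0123, limma), and by 0.11 in cells of like depth with an adjusted p of 0.173. *Eif1* was at 26.0, 25.6 and 25.9 in culture 1 and at 26.5, 25.6 and 26.5 in culture 2. *Eif1a* was at 0.660, 0.673 and 0.601 in culture 1 and at 0.601, 0.653 and 0.542 in culture 2. Its X-linked copy *Eif1ax* was at 4.80, 5.07 and 4.73 in culture 1 and at 4.87, 4.97 and 4.77 in culture 2. Both had the S arc highest in both cultures, with differences of 0.07 ± 0.07 and 0.06 ± 0.04 that did not pass (adjusted p = 0.451 and 0.363, limma). The pair are near-identical, so that reads shared between them may be split by the counting. *Eif5b*, which joins the large subunit, had 3.21, 3.29 and 2.88 in culture 1 and 3.25, 3.57 and 2.78 in culture 2. Its G2/M level was the lowest in both, with a drop of -0.19 ± 0.05 (adjusted p = 0.0124, limma; -0.13 with an adjusted p of 0.172 in cells of like depth). *Eif6*, which keeps the large subunit apart, was not called. Of the factors that bring the initiator tRNA without eIF2, *Eif2d* was lower in G2/M, with 0.317 and 0.259 in G1/G0 and G2/M of culture 1 and 0.276 and 0.240 of culture 2 (-0.24 ± 0.09, adjusted p = 0.0391, limma; -0.13 with an adjusted p of 0.484 in cells of like depth, and -0.20 with 0.0999 without the cells that hold a marker of differentiation). *Eif2a* was not called, at 1.20, 1.16 and 1.10 in culture 1 and 0.966, 0.930 and 0.891 in culture 2.

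By the same kind of fit, 18 of the 45 factors differed between the 8 arcs of 0.25π, against 3460 of all 9693 genes (35.7%), and 11 of the 14 called over 3 arcs were among them. *Eif2s2* had the smallest adjusted p (0.000401, limma). It was between 9.17 and 9.71 in culture 1 and between 8.32 and 9.16 in culture 2 outside arcs 6 and 7. In these arcs, which lead from G2/M back to G1/G0, it was 11.5 and 11.7 in culture 1 and 10.5 and 9.75 in culture 2, above every other arc. *Eif4a1* was likewise highest in arc 7, at 30.4 in culture 1, where the other arcs had 23.6 to 26.0, and at 23.2 in culture 2, where they had 19.1 to 22.3 (adjusted p = 0.00390, limma). In cells of like depth the values of this arc were 30.2 and 25.1, again the highest.

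*Eif4g3* (chr4:137993022-138208508), the scaffold related to eIF4G1, was lowest where these 2 factors were high. Over the 3 arcs it was not called, with 1.07, 0.930 and 0.945 in culture 1 and 0.992, 1.04 and 0.962 in culture 2. In arc 7 it had 0.53 in culture 1, where the arcs other than 6 and 7 had 0.91 to 1.22, and 0.72 in culture 2, where they had 0.96 to 1.15 (adjusted p over 8 arcs = 0.00139, limma). It was detected in 32.8% of the 64 cells of that arc in culture 1 (95% interval 21.6% to 45.7%, exact binomial, for counting error alone) and in 58.6% of the 1789 cells of the next arc (56.3% to 60.9%). In culture 2 it was detected in 41.3% of 189 cells (34.2% to 48.6%) and in 51.9% of 3149 (50.1% to 53.6%). The sparse arcs are also shallow: in arc 6 the median depth was 14111 and 11882 UMIs in the cultures and in arc 7 it was 14812 and 12386, against 18437 and 13991 in arc 8. Within cells of 12000 to 20000 UMIs, the mean in arc 7 was 0.55 of that in arc 8 in culture 1 (38 cells) and 0.83 in culture 2 (82 cells), where all cells gave 0.51 and 0.75. The intervals of the detected share overlap in these cells, with 39.5% (24.0% to 56.6%) in arc 7 and 56.7% (53.3% to 60.0%) in arc 8 of culture 1 and 45.1% (34.1% to 56.5%) and 52.9% (50.7% to 55.0%) in culture 2. The fit gives these thin arcs the weight of full ones.

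**Figure D4:**
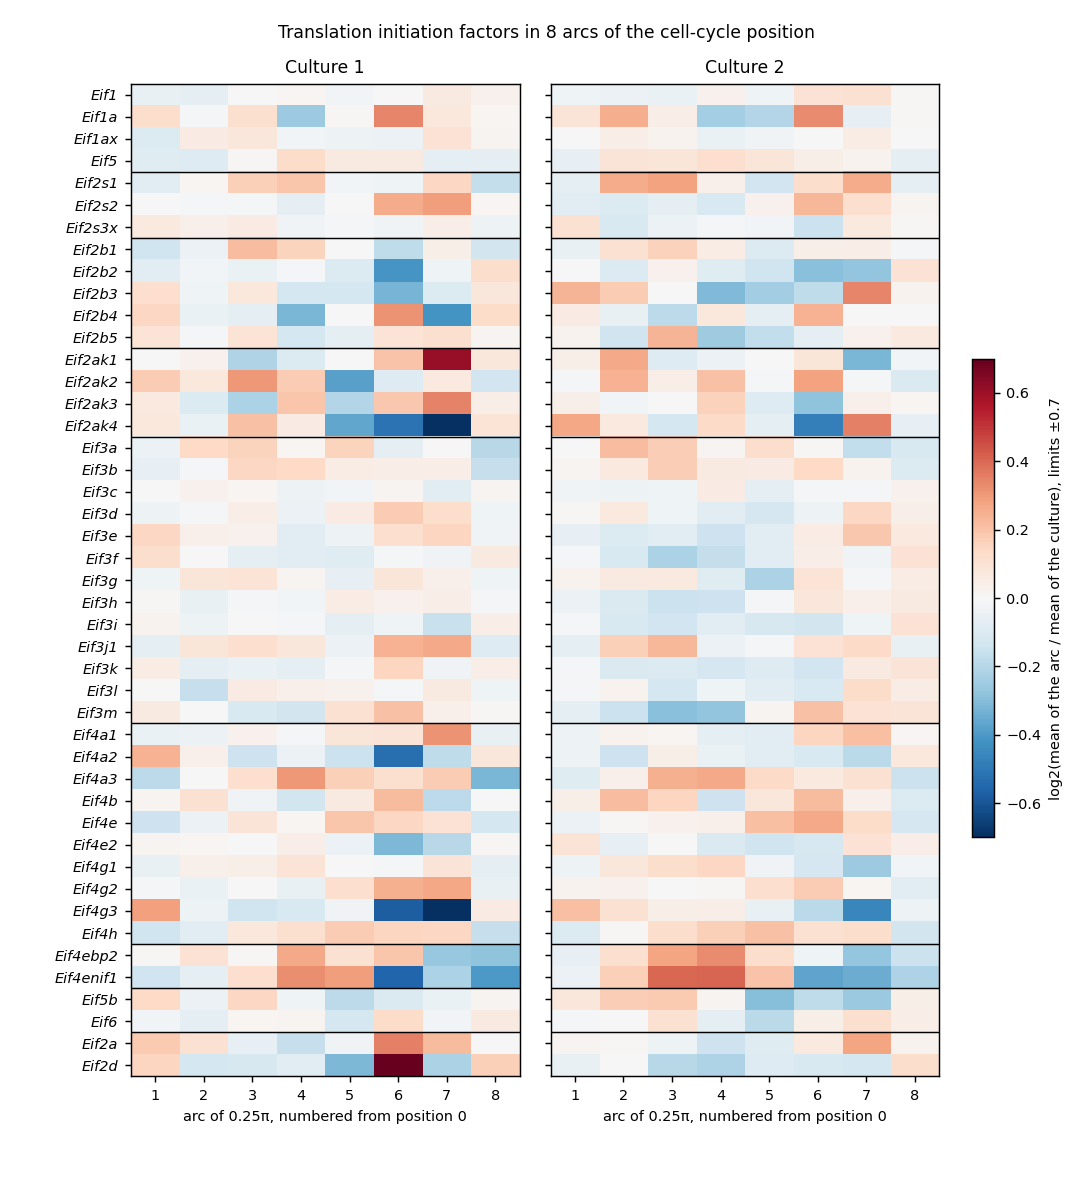
Log2 ratio of the mean of each arc of 0.25π to the mean of the culture for the 45 factors, grouped by role from top to bottom, with colours capped at 0.7 either way. In both cultures Eif4g3 is blue in arcs 6 and 7, while Eif2s2 and Eif4a1 turn red there.

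Of 38 other translation factors and regulators in the table, 20 differed between the 3 arcs (52.6%, against 49.3% of all genes). In S 7 were higher and 7 lower (18.4% each, against 19.5% and 13.4% of all genes). In G2/M 7 were higher and 8 lower (18.4% and 21.1%, against 20.6% and 24.9%). In cells of like depth 9 of the 38 differed (against 32.5% of all genes), 5 higher and 2 lower in S (against 14.2% and 6.87%). The helicase *Ddx3x* rose by 0.43 ± 0.06 in G2/M and the release factor *Gspt1* by 0.28 ± 0.05, whereas *Pdcd4*, an inhibitor of eIF4A, differed by -1.08 ± 0.12 in S and -1.247 ± 0.12 in G2/M, the largest differences of that list. Of the 63 cytosolic ribosomal protein genes, 11 differed between the arcs (17.5%), and none was higher in S or G2/M by limma (none at an unadjusted p under 0.05 either). Lower were 8 in S (12.7%, against 13.4% of all genes) and 12 in G2/M (19.0%, against 24.9%), with median differences of -0.06 and -0.05. In cells of like depth 1 of them was lower in S and 2 in G2/M, against 6.87% and 16.5% of all genes. With median-of-ratios scaling 5 and 3 were lower, against 14.7% and 22.2% of all genes. Of 21 genes of the integrated stress response, which eIF2 phosphorylation turns on, 13 differed (61.9%). In S 2 were higher and 9 lower (9.52% and 42.9%, against 19.5% and 13.4% of all genes). In G2/M 4 were higher and 7 lower (19.0% and 33.3%, against 20.6% and 24.9%). With means of log2(value + 1), 3 were higher and 4 lower in S, against 21.7% and 9.24% of all genes. In G2/M 5 were then higher and 2 lower, against 24.4% and 17.5%. The balance of higher and lower calls thus depends on the measure, for these genes as for all genes. In cells of like depth 2 were higher and 6 lower in S, against 14.2% and 6.87% of all genes. In G2/M 3 were there higher and 5 lower, against 16.8% and 16.5%. *Ddit3* was lower by -0.96 ± 0.11 in S, *Sesn2* by -0.96 ± 0.10 and *Asns* by -0.33 ± 0.06. The 2 that were higher in S were *Mthfd2*, by 0.84 ± 0.07, and *Aars*, by 0.46 ± 0.05.

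Across cells, few factors tracked another gene. A Pearson r of at least 0.3 in both cultures was reached by 2 pairs, *Eif4a1* with *Npm1*, the nucleolar chaperone (0.352 and 0.347 over 5748 and 7057 cells), and *Eif3e* with *Eef1a1*, the elongation factor (0.314 and 0.302). *Eif3f* with *Eef1a1* had 0.269 and 0.378. The cells of a culture share a library and a position in the cycle varies among them, so these values describe the cells and carry no test.

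Between the cultures, the deposited means of the 45 factors had a median log2 ratio of 0.11 (culture 1 over culture 2), against 0.09 for all genes. The range was from -0.11 for *Eif2s3x*, -0.10 for *Eif4e2* and -0.06 for *Eif3j1* to 0.30 for *Eif2a*, 0.33 for *Eif2ak2* and 0.46 for *Eif2b3*. These ratios are not plain ratios of molecules. Within a culture, the values of a gene lie near whole multiples of a unit that differs from gene to gene, from 0.815 to 1.23 of the median gene in culture 1 (5th to 95th percentile) and from 0.827 to 1.21 in culture 2. With that unit 60.1% and 67.2% of the nonzero values were within 0.05 of a whole number, and without it 25.6% and 27.4%. For the 25 factors with a unit in both cultures that were detected in at most 90% of cells, dividing by it widened the range of the ratios to -0.45 for *Eif4e2* and 0.96 for *Eif4a2*. The unit was estimated as 1 value per gene and culture, and a factor of that kind cancels from the differences along the cycle. There is 1 culture on each side of these ratios and no test belongs to them.

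**Figure D5:**
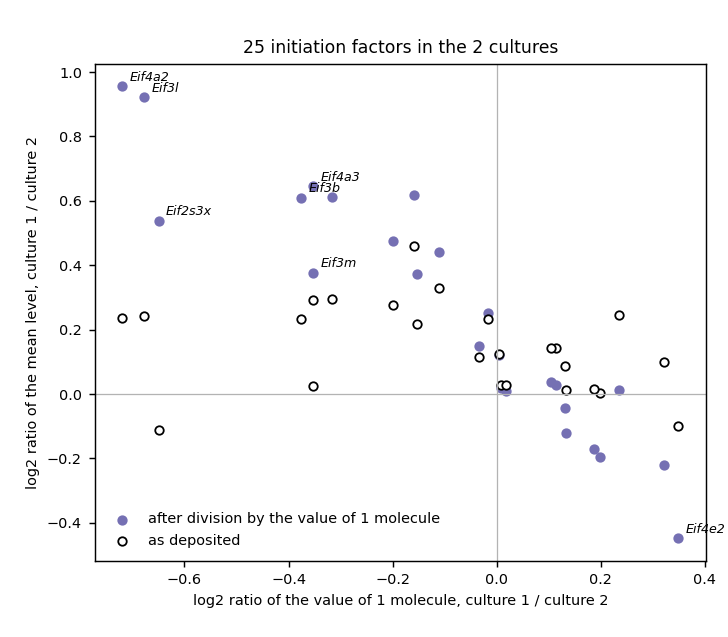
Log2 ratio of the mean level, culture 1 over culture 2, of 25 factors against the log2 ratio of the unit that stands for 1 molecule, as deposited (open circles) and after division by that unit (filled). The open circles lie between -0.11 and 0.46 and the filled ones between -0.45 and 0.96, with Eif4a2 and Eif3l at the top left.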

How the data were processed

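Single-cell RNA-seq was measured in 2 cultures (10x Chromium). By the study's methods and the submitters' processing notes, the authors quantified spliced reads with Alevin (Salmon 1.3.0) against GRCm38, removed outlying cells and scored doublets, and used Seurat 3.2.2. The deposited expression table holds a signal already normalised for depth. A second table by the authors holds total UMIs as estimated counts, the stage calls and the cell-cycle position in radians as other values. No further filter on cells and no doublet caller was applied here. Every per-sample column was mapped to a culture. Symbols were found for 10662 of 10666 genes. Gene coordinates are those of GENCODE vM21.

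Arc means were compared as log2(mean value + 0.01) with limma 3.58.1 in R 4.3.3 (trend, culture as a term, adjusted p below 0.05). Other steps used Python 3.11.15, numpy 2.4.6 and pandas 2.3.3. The R² and limma steps were tested on simulated data. Periodic loess used a span of 0.3. Values along the cycle are given for the 10 factors of largest lower R², the 6 of largest called difference in each contrast, the paralogue sets and the kinases. The other called factors, *Eif2s2* and the genes named from the other lists were chosen after their values were seen. Members and lists were chosen with earlier results of these data known. The position comes from the same cells, and the part of any member in it was not tested. The cultures are replicates by label. The fit over 3 arcs has 2 residual degrees of freedom, and limma adds 9.64 from the variance trend over all genes. Its p-values and SEs thus rest mostly on variance shared across genes. They measure only how far the arc differences vary between these libraries, which may be technical. Depth per cell limits the rare factors most, and culture 2 is shallower. Whether cells of 1 culture came from several embryos is not given in the sources used here. The alternatives were other pseudocounts, filters, scalings, arcs, stages, depth windows and each culture alone.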

Additional observations from a re-analysis of the deposited data

How the results depend on the processing

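The count of factors whose R² reached 0.05 in both cultures, 0, was 1 at a threshold of 0.02 and from 0 to 1 with either culture alone, and 0 under the other alternatives. Without the culture term the counts of 14 factors that differ, 10 higher and 2 lower in S, and 9 higher and 5 lower in G2/M became 0, 0, 0, 2 and 0. The 2 lower in S became 1 with means of log2(value + 1) and 0 in cells of one depth window. The 5 lower in G2/M became 0 with means of log2(value + 1), 0 in that window, 8 without arc 6 of 8 and 3 with median-of-ratios scaling. Other counts stayed within 1.5 times. Of the 26 called differences, 14 passed in the depth window and 24 without cells that hold a marker of differentiation, an alternative added after the data were seen, and none changed sign under any alternative or in either culture alone. The 12 called in S and the 14 called in G2/M had the same direction in each culture, from 12 to 12 and from 14 to 14, which the calling favours. Without *Eif1* and *Eif4a1* the summed shares were 0.994%, 1.01% and 0.9997% in G1/G0, S and G2/M, by construction, as against 1.41%, 1.42% and 1.42%; with 1 culture left out they were 1.38% to 1.44%, 1.38% to 1.47% and 1.37% to 1.47%. The median log2 ratio between cultures, 0.11, was 0.0901 with each cell rescaled, 0.10 for means of log2(value + 1), 0.13 in the depth window, 0.12 in G1/G0 cells and 0.15 after division by the value of 1 molecule (added later). Where a cause is not named, the cause was not tested. No paired analysis was possible because the cultures form 1 group, other than the culture term above. The comparison of cells by sex class was not run, as its marker genes were not analysed here.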
